A study of Mus musculus with 6 samples.

Results

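Genes that mark fibroblasts and the extracellular matrix were followed in RNA sequencing libraries of mouse spermatogonial stem cells in culture, the renewing germ cells from which sperm derive. The 10 genes were chosen by name from the 34745 genes of the deposited table. They encode 3 fibrillar collagen chains (Col1a1, Col1a2, Col3a1), fibronectin (Fn1), SPARC (Sparc) and a lysyl oxidase (Loxl1). The others encode a matrix protease and its inhibitor (Mmp2, Timp2) and the surface proteins PDGFRA and THY1 (Pdgfra, Thy1). There were 3 libraries from cultures given 100 µM bisphenol A (BPA), an oestrogen-like building block of plastics, for about 4 days, and 3 libraries from untreated cultures. In both groups the cells came from mice labelled DBA/2J X c57BL/6J at postnatal day 6 and were at passages 15 to 20. The titles name no vehicle for the untreated cultures, so effects of a solvent and of BPA cannot be told apart. The labels used here name neither a feeder layer nor separate cultures or animals for the replicates, and the p-values cover no more than the differences among these 6 libraries, which may be technical.

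Fibroblasts build connective tissue by secreting collagen chains, which assemble into triple helices, are trimmed outside the cell and are cross-linked into fibrils by lysyl oxidases. Matrix metalloproteinases degrade this matrix and TIMP proteins inhibit them. Spermatogonial stem cells are commonly grown on mitotically inactive mouse embryonic fibroblasts, so transcripts of these genes can come from feeder cells carried into the RNA, from somatic testis cells or from the germ cells themselves.

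Library totals were 14232872, 21444077 and 22286517 gene counts in BPA replicates 1 to 3, and 19183912, 13453280 and 13888739 in untreated replicates 1 to 3. BPA replicate 2 stood apart by 1 measure: the chi-square per degree of freedom of its counts against the other BPA libraries was 69.9 and 95.1, compared with 19.2 to 25.8 for the other pairs of replicates. On the log2 scale of CPM, defined below, it correlated with them at 0.916 and 0.930. That was within the span of the other pairs of replicates, 0.893 to 0.943. The fit of all 13287 genes with enough counts called 1415 as changed under BPA, which is 10.6% (4.37% higher and 6.28% lower), at an adjusted p under 0.05 in edgeR's quasi-likelihood test with Benjamini-Hochberg adjustment, called edgeR adjusted p below. Without BPA replicate 2 it called 2807. Levels are in CPM, counts set relative to each library's effective size (its total times an edgeR scaling factor), unless they are set between genes, where the deposited FPKM values, which are per gene length, are used. Sums over several genes, and shares of such sums, are in CPM unless FPKM is named. A log2 fold change is BPA over untreated, with its standard error (SE), and n = 3 per group throughout.

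All 10 genes had counts in every library and all were tested. Loxl1 was lower under BPA, and 0 genes were higher by edgeR, DESeq2 or limma-voom. By edgeR 3 of the 10 had an unadjusted p under 0.05, with lower values under BPA. Such p-values were common among all tested genes. An unadjusted edgeR p of 0.0499, that of Mmp10, named after its values were seen, became an edgeR adjusted p of 0.197. In a bulk sample, fewer cells that express a gene and less of its RNA per cell cannot be told apart. Thus 1 of 10 passed the threshold, against 6.28% of all tested genes that were lower. The remaining 9 did not pass: Col3a1, Col1a2, Col1a1, Mmp2, Sparc, Thy1 and Timp2 had negative fold changes, and Pdgfra and Fn1 positive ones. The median log2 fold change of the 10 was -0.43, against 0.10 over all tested genes. DESeq2 called Col3a1 as well, which made 2 lower genes, and so did the edgeR fit without BPA replicate 2. Scaling by library size alone called 0 of the 10, as did each fit that left out a library other than BPA replicate 2.

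**Figure D1:**
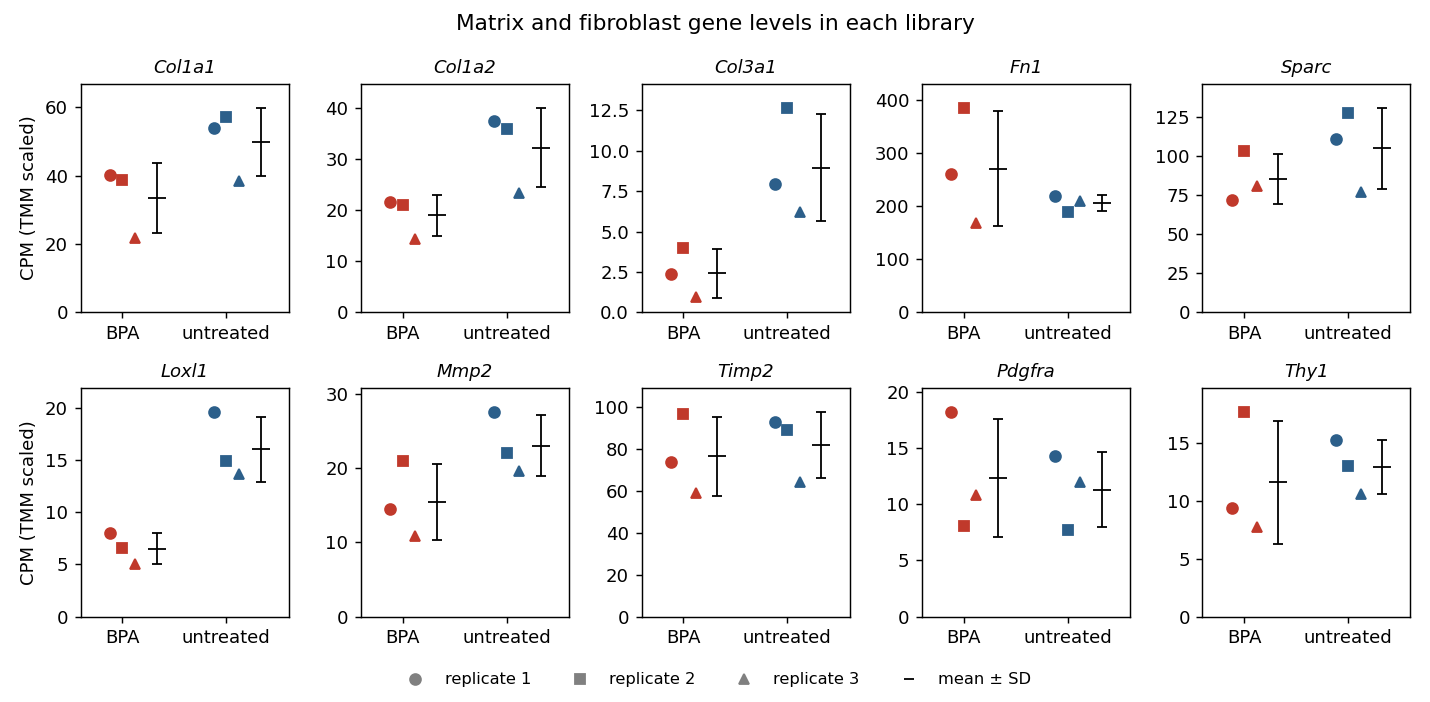
CPM (vertical axes, each starting at 0) of the 10 genes in the 3 BPA libraries (red) and the 3 untreated libraries (blue), with symbols for the replicate and bars for the mean ± SD. In CPM the groups are apart for Loxl1, Col3a1 and Col1a2, where every BPA library lies below every untreated one, and overlap for the other 7 genes. In FPKM those of Col1a2 overlap narrowly.

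On the per-length scale the set spanned a wide range of levels. Averaged over the 6 libraries, Sparc was at 21.3 FPKM, Timp2 at 19.2, Fn1 at 13.1, Thy1 at 6.99, Mmp2 at 6.23, Col1a1 at 5.94, Loxl1 at 3.32, Col1a2 at 1.56, Pdgfra at 0.799 and Col3a1 at 0.513. Sparc exceeded 87.7% of the genes counted in any library, Col1a1 73.2% and Col3a1 40.7%. Within libraries, Timp2 was above Fn1, Fn1 above Thy1, Col1a1 above Loxl1, Loxl1 above Col1a2 and Col1a2 above Pdgfra in all 6. Pdgfra was above Col3a1 in 5 of 6, and Sparc above Timp2, Thy1 above Mmp2 and Mmp2 above Col1a1 in 4 of 6 each. The gene lengths behind these values were worked out from the deposited counts, library totals and FPKM, and the exon lengths of GENCODE vM21 differ for some genes. The length so worked out was 18077 bases against 11685 in GENCODE vM21 for Fn1, 14968 against 10024 for Pdgfra and 1735 against 2995 for Thy1. With the GENCODE lengths, chosen after seeing the data, the mean levels were 20.3 FPKM for Fn1 and 20.2 for Timp2, and 4.05 FPKM for Thy1, below Col1a1 at 6.27 and Mmp2 at 5.62, so the places of Fn1 and Thy1 depend on the length used.

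The 10 genes together took 0.0558%, 0.0660% and 0.0418% of all counts in BPA replicates 1 to 3, and 0.0569%, 0.0539% and 0.0471% in untreated replicates 1 to 3. Their summed level was 520.0, 701.8 and 379.6 CPM in BPA replicates 1 to 3, and 598.2, 569.2 and 474.5 CPM in untreated replicates 1 to 3. The groups overlapped, the BPA libraries spread more widely than the untreated ones, and the highest and lowest of all 6 were BPA libraries. Fn1 alone made up 50.1%, 54.8% and 44.2% of this sum in BPA replicates 1 to 3, and 36.6%, 33.4% and 44.2% in untreated replicates 1 to 3. These shares of CPM take no account of gene length, and Fn1 is long. Per length its part was smaller. It was at 15.5, 20.0 and 10.2 FPKM of a summed 74.9, 89.5 and 62.1 FPKM in BPA replicates 1 to 3. In untreated replicates 1 to 3 it was at 11.5, 9.95 and 11.5 FPKM of 90.7, 87.5 and 69.1 FPKM.

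The label of a fibroblast feeder was checked against 11 further fibroblast and mesenchymal markers. Of these, 4 were above 1 FPKM in every library: Vim, which encodes the intermediate filament vimentin, at a mean of 18.8 FPKM, Twist1, a mesenchymal transcription factor, at 8.09, Tagln, which encodes an actin-binding protein, at 5.90 and Acta2, which encodes smooth muscle actin, at 5.72. The other 7 stayed under 1 FPKM in every library. Fap, the fibroblast activation protein, had 0 counts in all 6 libraries, Postn, which encodes the matrix protein periostin, had 5 in all, and Lum, which encodes the collagen-binding proteoglycan lumican, had 7. Dcn, which encodes the related proteoglycan decorin, had 12, 19 and 35 counts in BPA replicates 1 to 3, and 23, 0 and 3 in untreated replicates 1 to 3. The classical stromal markers Pdgfrb, Prrx1 and Cdh11 were at means of 0.394, 0.0752 and 0.0896 FPKM. Several defining fibroblast transcripts were therefore at or near 0 while the collagen and fibronectin genes were counted in every library, and the set is described here as matrix and fibroblast genes, with no statement on which cells made them.

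The 3 fibrillar collagen genes of the set had lower mean levels in BPA libraries, and edgeR called 0 of them. Col1a2 and Col3a1 had an unadjusted edgeR p under 0.05 (0.0237 and 0.00945), and DESeq2 called Col3a1. Fibrillar collagen genes outside the set, named after their values were seen, went both ways. Col5a1 and Col2a1 had log2 fold changes of 0.21 and 0.68, Col5a2 and Col5a3 of -0.01 and -0.39, and edgeR called 0 of these. Collagen I is built from chains of Col1a1 and Col1a2, and collagen III, its partner in soft connective tissue, from Col3a1 chains. Col1a1 (ENSMUSG00000001506, chromosome 11, 94936224 to 94953042, mm10) was at 40.1, 38.7 and 21.8 CPM in BPA replicates 1 to 3, and at 53.9, 57.1 and 38.5 CPM in untreated replicates 1 to 3. The groups overlapped narrowly, since untreated replicate 3 lay below BPA replicates 1 and 2, and the log2 fold change was -0.57 (SE 0.28, edgeR adjusted p = 0.224). Col1a2 (ENSMUSG00000029661, chromosome 6, 4504814 to 4541544) was at 21.6, 21.1 and 14.4 CPM in BPA replicates 1 to 3, and at 37.5, 35.9 and 23.3 CPM in untreated replicates 1 to 3. In CPM its groups did not overlap, although untreated replicate 3 was close to the BPA libraries. In the deposited FPKM they did overlap, since BPA replicate 1 (1.43) lay just above untreated replicate 3 (1.426). The log2 fold change of -0.76 (SE 0.30) did not pass (edgeR adjusted p = 0.127). It passed after a correction for GC and length chosen after seeing the data (-0.85, edgeR adjusted p = 0.0474).

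Col3a1 had the largest difference of the set and the fewest counts. Col3a1 (ENSMUSG00000026043, chromosome 1, 45311538 to 45349706) had 36, 80 and 23 counts in BPA replicates 1 to 3, and 145, 161 and 86 counts in untreated replicates 1 to 3. These correspond to 2.36, 3.97 and 0.938 CPM in BPA replicates 1 to 3, and 7.94, 12.6 and 6.24 CPM in untreated replicates 1 to 3. Every BPA library was below every untreated one, with a 13.5-fold range from lowest to highest library. The log2 fold change was -1.89 (SE 0.61, 95% interval -3.22 to -0.55), and edgeR adjusted p = 0.0715, while DESeq2 gave an adjusted p of 0.0210. By edgeR it passed with no low-count filter (adjusted p = 0.0449), after the GC and length correction (0.0308) and without BPA replicate 2 (0.0221), and did not pass without any one of the other libraries (0.103 to 0.228). In CPM, groups that do not overlap were found for 3 of the 10 genes, and for 31.3% of all tested genes (15.6% with BPA above and 15.7% with BPA below).

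Upstream sequence is shown for Col3a1, the collagen gene of the set with the largest difference, and for Pdgfra, whose groups overlapped. The stretch upstream of Col1a2 that lies in no annotated exon is shown as well. The sequences are RefSeq promoters of GRCm38.p6, the assembly of mm10, of which 5 of the 10 genes had one. Capitals mark matches on either strand to the CCAAT box (CCAAT), the TATA box (TATAAA), the GC box that SP1 binds (GGGCGG), the AP-1 site (TGANTCA) or the core of the cyclic AMP response element (TGACGT), and none of the matches shown overlap.
Col3a1, chr1:45311288-45311537, plus strand, 250 bases: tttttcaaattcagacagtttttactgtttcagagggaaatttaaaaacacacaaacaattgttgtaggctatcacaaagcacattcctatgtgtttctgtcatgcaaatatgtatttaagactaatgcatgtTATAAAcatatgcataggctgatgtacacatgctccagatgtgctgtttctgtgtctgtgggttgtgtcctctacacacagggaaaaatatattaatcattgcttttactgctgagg
Col1a2, chr6:4505370-4505492, plus strand, 123 bases: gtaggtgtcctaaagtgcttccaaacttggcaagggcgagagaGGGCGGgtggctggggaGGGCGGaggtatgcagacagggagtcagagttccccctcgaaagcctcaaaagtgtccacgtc
Pdgfra, chr5:75152001-75152250, plus strand, 250 bases: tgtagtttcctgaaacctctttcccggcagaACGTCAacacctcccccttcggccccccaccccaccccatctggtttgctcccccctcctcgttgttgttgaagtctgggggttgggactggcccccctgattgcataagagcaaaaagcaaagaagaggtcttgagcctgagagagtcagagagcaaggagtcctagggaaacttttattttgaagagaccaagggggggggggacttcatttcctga
The Col3a1 window is poor in G and C (35.2%) and holds TATAAA at 117 to 112 bases before the start, a motif found in the 250 bases upstream of 13% of 27025 genes. The Col1a2 stretch is 59.3% G and C and holds GGGCGG at 2 places, and 32.9% of genes have that motif upstream. The whole 250-base Col1a2 window, whose RefSeq start lies inside the span the deposited table gives for the gene, also holds CCAAT, found for 34.5% of genes. In the Pdgfra window the reverse complement of TGACGT was matched, a motif of 6.56% of genes. TGANTCA, present for 6.87% of genes, was found in none of the 5 windows. A match describes the letters and not a bound site.

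The genes of fibronectin and SPARC did not pass the threshold. Fn1 (ENSMUSG00000026193, chromosome 1, 71585520 to 71653200), which encodes the adhesive glycoprotein that integrins bind, was at 260.4, 384.9 and 167.9 CPM in BPA replicates 1 to 3, and at 218.8, 189.9 and 209.9 CPM in untreated replicates 1 to 3. In CPM, BPA replicates 1 and 2 were above, and BPA replicate 3 below, all untreated libraries. In FPKM, BPA replicate 3 (10.22) was above untreated replicate 2 (9.951). The log2 fold change of 0.39 (SE 0.24, edgeR adjusted p = 0.338) was 0.0547 without BPA replicate 2 and 0.65 without BPA replicate 3. Of the Fn1 exon length 2.5% overlaps an antisense gene, and the library kit does not mark strand.
Sparc (ENSMUSG00000018593, chromosome 11, 55394500 to 55420080), which encodes a collagen-binding protein that regulates cell adhesion, was at 71.8, 103.2 and 80.8 CPM in BPA replicates 1 to 3, and at 110.5, 127.1 and 76.6 CPM in untreated replicates 1 to 3. Untreated replicates 1 and 2 were above all BPA libraries and untreated replicate 3 among them (log2 fold change -0.30, SE 0.22, edgeR adjusted p = 0.441).

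Loxl1 was the gene of the set that passed the threshold. It encodes a lysyl oxidase that cross-links elastic fibres and collagen (ENSMUSG00000032334, chromosome 9, 58287723 to 58313212). Its level was 7.99, 6.54 and 5.02 CPM in BPA replicates 1 to 3, and 19.6, 14.9 and 13.6 CPM in untreated replicates 1 to 3. All BPA libraries lay well below all untreated ones, and the means were 6.52 ± 1.49 CPM under BPA and 16.04 ± 3.12 CPM in untreated cultures (SD, n = 3 each). The log2 fold change was -1.30 (SE 0.37, 95% interval -2.11 to -0.50, edgeR adjusted p = 0.0424). The call was lost in every leave-one-out fit but that without BPA replicate 2 (edgeR adjusted p = 0.0825 to 0.188), with scaling by library size (0.0568) and after correcting for gene length and GC content (0.0539), and Loxl1 is the member richest in G and C (61.0%). Its fold change stayed between -1.47 and -1.05 in all 15 alternatives.

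Neither the protease gene Mmp2 nor the inhibitor gene Timp2 passed the threshold. Mmp2 (ENSMUSG00000031740, chromosome 8, 92827328 to 92853417) encodes gelatinase A, which is secreted by fibroblasts and activated at the cell surface by MMP14 with TIMP2 as adaptor. It was at 14.5, 20.9 and 10.9 CPM in BPA replicates 1 to 3, and at 27.5, 21.97 and 19.6 CPM in untreated replicates 1 to 3, so that BPA replicate 2 alone reached the untreated range. The log2 fold change was -0.58 (SE 0.33, edgeR adjusted p = 0.294). Timp2 (ENSMUSG00000017466, chromosome 11, 118301069 to 118355740) was at 73.7, 96.8 and 59.3 CPM in BPA replicates 1 to 3, and at 93.0, 89.0 and 64.2 CPM in untreated replicates 1 to 3. BPA libraries held both the highest and the lowest CPM, while the lowest FPKM was 15.57, in untreated replicate 3. The log2 fold change was -0.10 (SE 0.23, 95% interval -0.59 to 0.39, edgeR adjusted p = 0.832).

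The surface proteins also overlapped between the groups. Pdgfra (ENSMUSG00000029231, chromosome 5, 75152292 to 75198215), which encodes the platelet-derived growth factor receptor of mesenchymal cells, was at 18.2, 8.03 and 10.9 CPM in BPA replicates 1 to 3, and at 14.3, 7.69 and 12.0 CPM in untreated replicates 1 to 3. Replicate 2 was the lowest library of each group. The log2 fold change was 0.12 (SE 0.41, 95% interval -0.77 to 1.02, edgeR adjusted p = 0.890), and it was -0.26 without BPA replicate 1 and -0.0876 without untreated replicate 2. Antisense genes cover 6.21% of the Pdgfra exon length. Thy1 (ENSMUSG00000032011, chromosome 9, 44043384 to 44048579) encodes a glycolipid-anchored surface protein of fibroblasts that is also used to select spermatogonial stem cells, so it does not separate the cell types. Thy1 was at 9.43, 17.7 and 7.79 CPM in BPA replicates 1 to 3, and at 15.3, 13.03 and 10.6 CPM in untreated replicates 1 to 3. BPA replicate 2 was above, and the other BPA libraries below, all untreated ones (log2 fold change -0.16, SE 0.39, 95% interval -1.02 to 0.70, edgeR adjusted p = 0.851).

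**Figure D2:**
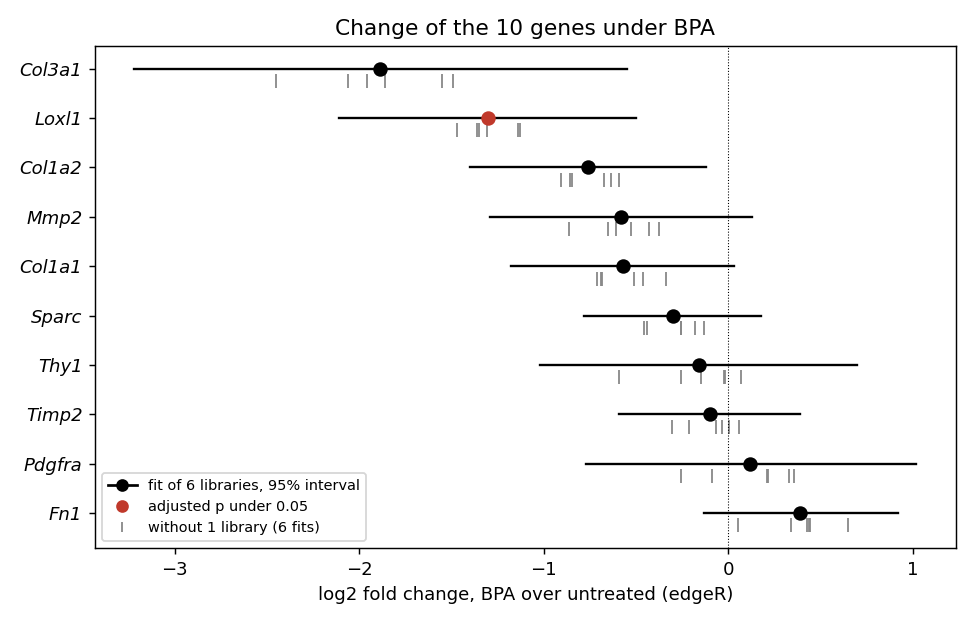
Log2 fold change of BPA over untreated (horizontal axis) for the 10 genes, with the 95% interval of the fit of 6 libraries and, as grey ticks, the values when 1 library was left out. Loxl1 (red) passed the adjusted p threshold, the intervals of Loxl1, Col3a1 and Col1a2 lie below 0, and the ticks of Pdgfra, Timp2 and Thy1 fall on both sides of 0.

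Differences between libraries of one group were shared by many of the genes. Libraries are ordered here by CPM. BPA replicate 3 was the lowest of all 6 libraries for 8 of the 10 genes, the exceptions being Pdgfra and Sparc. In the deposited FPKM it was not the lowest for Fn1 (10.22, against 9.951 in untreated replicate 2). Nor was it for Timp2 (15.94, against 15.57 in untreated replicate 3). Among the untreated libraries, replicate 3 was the lowest for 8 genes, the exceptions being Fn1 and Pdgfra, and replicate 1 was the highest for 7. Among the BPA libraries, replicate 2 was the highest for 6. All genes of a library share 1 scaling factor, which was largest, at 1.102, for BPA replicate 3.

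Ratios of FPKM between pairs of genes within a library, chosen after the values were seen, set the members against each other free of library scaling. The ratio of Col1a1 to Col1a2 was 4.34, 4.30 and 3.55 in BPA replicates 1 to 3 and 3.36, 3.72 and 3.86 in untreated replicates 1 to 3, and the groups overlapped. Col1a1 to Col3a1 was 26.3, 15.1 and 36.0 in BPA replicates 1 to 3, and 10.5, 6.99 and 9.54 in untreated replicates 1 to 3. The ratio of Fn1 to Col1a1 was 2.49, 3.81 and 2.95 in BPA replicates 1 to 3, and 1.56, 1.28 and 2.09 in untreated replicates 1 to 3. Timp2 to Mmp2 was 3.78, 3.44 and 4.04 in BPA replicates 1 to 3, and 2.51, 3.01 and 2.43 in untreated replicates 1 to 3. These 3 ratios were higher in every BPA library than in every untreated one. Since the ratios were chosen on these values, they are a description with no test.

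The wider matrix and fibroblast genes were taken as 6 lists with 198 genes, of which 153 were tested. Of these 4 were higher and 13 lower, or 11.1%, close to the 10.6% of all tested genes, and their median log2 fold change was -0.04. Without BPA replicate 2 there were 9 higher and 28 lower, while over all 13708 genes tested in that fit there were 1207 higher and 1600 lower. Without BPA replicate 1 or untreated replicate 1 there were 2 lower genes, without untreated replicate 2 there were 4, without BPA replicate 3 there were 5 and without untreated replicate 3 there were 7. The number higher was 2 without untreated replicate 1. Calls over all tested genes fell as well when a library other than BPA replicate 2 was left out, from 1415 to between 444 and 833. Of the 198 genes 84 stayed under 1 FPKM in every library and 11 had 0 counts in all of them.

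Matrix proteases and their inhibitors had 5 of 24 tested genes past the threshold, all lower, against 6.28% of all tested genes that were lower, and a median of -0.24. Mmp3, which encodes stromelysin-1, fell to 8.38, 7.58 and 3.75 CPM in BPA replicates 1 to 3, against 44.5, 46.4 and 24.8 CPM in untreated replicates 1 to 3 (log2 fold change -2.56, SE 0.38, edgeR adjusted p = 0.0015). Timp1, an inhibitor of metalloproteinases, fell to 19.6, 26.9 and 28.3 CPM in BPA replicates 1 to 3, against 68.0, 53.9 and 49.7 CPM in untreated replicates 1 to 3 (-1.20, SE 0.24, edgeR adjusted p = 0.00965). For both, all BPA libraries were below all untreated ones. Mmp14, the membrane-bound activator of the Mmp2 product, fell by 0.77 on the log2 scale, Mmp9, which encodes gelatinase B, by 0.73, and Bsg, which encodes the metalloproteinase inducer basigin, by 0.48. Mmp3 passed without each library in turn. Timp1 lost the threshold without BPA replicate 1 or untreated replicate 1 (edgeR adjusted p up to 0.0815), and Mmp14, Mmp9 and Bsg in every leave-one-out fit but that without BPA replicate 2 (up to 0.139, 0.159 and 0.172).

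Of 36 tested matrix glycoproteins and proteoglycans 2 were higher and 3 lower, or 13.9%, near the 10.6% of all tested genes, with a median of 0.08. Fbln5, which encodes the elastic fibre protein fibulin-5, rose to 14.9, 13.6 and 8.93 CPM in BPA replicates 1 to 3, against 0.548, 0.549 and 0 CPM in untreated replicates 1 to 3 (fitted log2 fold change 5.04, SE 0.80, edgeR adjusted p = 0.00214). Lamb2, a laminin chain of basement membranes, rose to 132.8 ± 63.1 CPM under BPA against 46.8 ± 4.98 CPM in untreated cultures (SD, n = 3 each; 1.5, SE 0.28, edgeR adjusted p = 0.00647). Both passed without each library in turn. Mfap2, which encodes a protein of microfibrils, fell by 1.6 on the log2 scale, the adhesion modulator Tnc by 1.37 and Tgfbi, a matrix protein induced by transforming growth factor beta, by 1.24. Mfap2 lost the threshold without BPA replicate 1 or untreated replicate 1 (edgeR adjusted p up to 0.0834), and Tnc and Tgfbi in every leave-one-out fit but that without BPA replicate 2 (up to 0.0968 and 0.174).

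Among 21 other collagens 1 passed the threshold, or 4.76% against 10.6% of all tested genes, with a median of -0.01 over all. It was Col26a1, known from mouse testis and ovary, which rose to 45.4 ± 5.80 CPM under BPA against 21.2 ± 3.30 CPM in untreated cultures (SD, n = 3 each; 1.10, SE 0.25, edgeR adjusted p = 0.0153, and 0.0915 without untreated replicate 1). Of 23 genes of collagen folding, trimming and cross-linking 1 passed the threshold, or 4.35%, with a median of 0.11 over all. P4hb, which encodes a disulfide isomerase that is also a subunit of prolyl 4-hydroxylase, fell by 0.51 on the log2 scale (SE 0.13, edgeR adjusted p = 0.0273, and up to 0.145 in every leave-one-out fit but that without BPA replicate 2). Of 21 matrix receptors edgeR, DESeq2 and limma-voom called 0. By edgeR 5 had an unadjusted p under 0.05, which was common among all tested genes. Without BPA replicate 2 edgeR called 2 higher and 3 lower of 22, against 1207 higher and 1600 lower of all 13708 tested genes. After the GC and length correction it called 1 higher and 2 lower, against 900 higher and 1234 lower of all 13287. The most abundant receptor genes were the syndecan gene Sdc4, at 837.5 ± 18.2 CPM under BPA and 1027 ± 17.7 CPM in untreated cultures, and the integrin gene Itgb5, at 234.0 ± 43.7 and 314.7 ± 40.6 CPM in BPA and untreated cultures (SD, n = 3 each; edgeR adjusted p = 0.138 and 0.137).

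**Figure D3:**
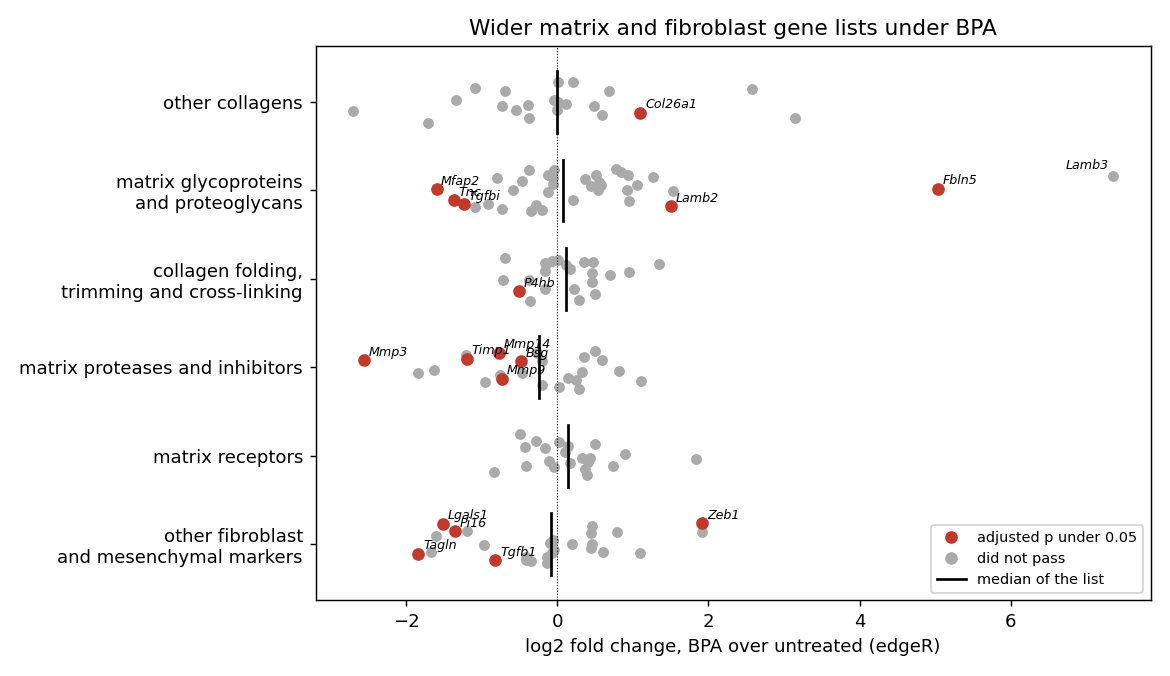
Log2 fold change of BPA over untreated (horizontal axis) of the tested genes in 6 matrix and fibroblast lists, 1 point per gene with vertical scatter for legibility. Red named points passed the adjusted p threshold, 4 of them higher and 13 lower, and black bars mark each list's median. The grey point named Lamb3 did not pass and had 0 counts in the untreated libraries, so its position depends on the prior count of the fit.

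Of 28 tested genes in the list of further fibroblast and mesenchymal markers 1 was higher and 4 were lower, or 17.9% against 10.6% of all tested genes, with a median of -0.08. Lgals1, which encodes the lectin galectin-1 and is expressed in many cell types, fell to 551.6, 704.2 and 562.0 CPM in BPA replicates 1 to 3, against 1900, 1733 and 1531 CPM in untreated replicates 1 to 3 (log2 fold change -1.51, SE 0.14, edgeR adjusted p = 7.6e-05). The groups were far apart, and Lgals1 passed without each library in turn. Lgals1 averaged 605.9 CPM of a summed 1548 CPM of this list under BPA, and 1722 CPM of 2844 CPM in untreated cultures. Pi16, which encodes a peptidase inhibitor, fell by 1.35 on the log2 scale, the growth factor gene Tgfb1 by 0.82 and Tagln by 1.84, while Zeb1, a mesenchymal transcription factor, rose by 1.92. Pi16 lost the threshold without BPA replicate 1 or untreated replicate 1 or 2 (edgeR adjusted p up to 0.0805), Tagln and Zeb1 without BPA replicate 1 or 3 or untreated replicate 1 or 2 (up to 0.196 and 0.159), and Tgfb1 in every leave-one-out fit but that without BPA replicate 2 (up to 0.129). Tgfbi, Bsg and Zeb1 lay outside the rule for named genes and were chosen after their values were seen.

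Markers of other cell types were set beside these levels. The 24 germ cell markers had counts in all libraries and summed to 3374, 4074 and 3546 CPM in BPA replicates 1 to 3, and 4240, 4213 and 4208 CPM in untreated replicates 1 to 3. This was 6.49, 5.81 and 9.34 times the sum of the 10 matrix and fibroblast genes in BPA replicates 1 to 3, and 7.09, 7.40 and 8.87 times in untreated replicates 1 to 3. These ratios of CPM take no account of gene length, and the gap was larger in FPKM. The germ cell markers summed to 1244, 1246 and 1302 FPKM in BPA replicates 1 to 3. The sums of the 10 genes were 74.9, 89.5 and 62.1 FPKM there. In untreated replicates 1 to 3 these were 1595, 1572 and 1604 FPKM, and 90.7, 87.5 and 69.1 FPKM. Of the germ cell markers 3 were higher and 6 lower, or 37.5% against 10.6% of all tested genes. The lower ones included Nanos3 (-2.65), Pou5f1 (-2.19), Uchl1 (-0.82) and Bcl6b (-0.85, lost without BPA replicate 1 or any untreated replicate, edgeR adjusted p up to 0.0934). The higher ones, named after their values were seen, were Sall4 (0.82), Sohlh1 (0.68) and Piwil2 (0.59). In leave-one-out fits their largest edgeR adjusted p were 0.163, 0.0766 and 0.128. All lost the threshold when BPA replicate 1, untreated replicate 1 or untreated replicate 2 was dropped, Sall4 further when untreated replicate 3 was, and Piwil2 when BPA replicate 3 was.
The 20 Sertoli cell markers summed to 783.3 to 882.7 CPM under BPA and 626.7 to 678.9 CPM in untreated cultures, mostly from Dmrt1, which spermatogonia also express. Fshr, Rhox5, Rhox8 and Nr5a1 had 0 counts in every library. Of the 11 tested Sertoli cell markers 2 were called, or 18.2% against 10.6% of all tested genes. These were Clu (1.34) and Sox9 (1.5), both higher under BPA, Sox9 with an edgeR adjusted p of 0.0594 without untreated replicate 1. Leydig and peritubular markers summed to 21.4 to 29.3 CPM under BPA and 12.2 to 14.6 CPM in untreated cultures, and 9 of the 13 were not tested. Of the 4 tested, 1 was called, Ptch1, which was higher (1.63, edgeR adjusted p = 0.0497), a call lost whichever library was left out (up to 0.164). Endothelial and blood cell markers summed to 39.2 to 54.2 CPM under BPA and 75.8 to 79.5 CPM in untreated cultures. Of their 6 tested genes edgeR, DESeq2 and limma-voom called 0, with 3 at an unadjusted edgeR p under 0.05, which was common among all tested genes. Without BPA replicate 2 edgeR called 1 lower of 7 tested, against 1600 lower of all 13708. Without BPA replicate 3 it called 1 lower of 7, against 418 lower of all 13583. After the GC and length correction it called 1 lower of 6, against 1234 lower of all 13287. Cd68 was at 33.6 ± 8.58 CPM under BPA and 50.9 ± 2.29 CPM in untreated cultures, and Lyz2 at 1.45 ± 1.79 CPM under BPA and 6.76 ± 0.701 CPM in untreated cultures (SD, n = 3 each). The part of these cells in the matrix gene values was not tested.

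**Figure D4:**
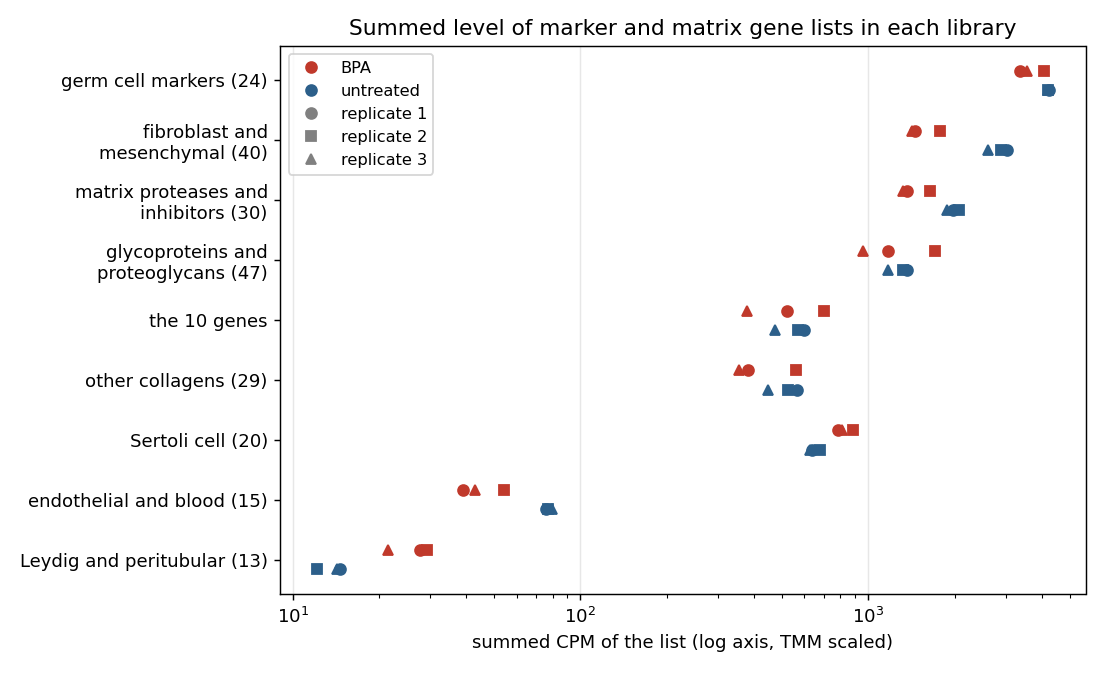
Summed CPM (log axis) of the 10 genes and of 8 marker or matrix lists, with the number of genes in each, in the 3 BPA libraries (red) and the 3 untreated libraries (blue). The germ cell markers are the highest of the sums shown, the 10 genes lie between 379.6 and 701.8 CPM with overlapping groups, and the fibroblast and mesenchymal list is lower in every BPA library, with 1413 to 1778 CPM against 2614 to 3037 CPM. Of that list's sum Lgals1 alone averaged 605.9 CPM under BPA and 1722 CPM in untreated cultures, and the list's median log2 fold change was -0.08.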

How the data were processed

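The data were 3 BPA and 3 untreated RNA libraries, made with a kit that does not mark strand, per the labels' protocols. The submitters' processing notes name TopHat2 2.0.9, HTSeq and the build mm10. The authors' deposited table held raw read counts and FPKM per gene. Gene lengths were worked out from counts, library totals and FPKM. In each library they lay within 0.00092, as a fraction, of the gene's median over the libraries. No row was without a gene. Counts were tested with edgeR 4.0.16 in R 4.3.3 (quasi-likelihood test, trimmed mean of M-values scaling, low-count filter, Benjamini-Hochberg adjusted p under 0.05), after testing on simulated data; SE is the log2 fold change over the square root of its F statistic. The deposited FPKM values served levels and ratios between genes. DESeq2 1.42.0, limma-voom 3.58.1, other scalings and filters, fits that left out 1 library and a fit with a replicate block were alternatives. Of the gene IDs 98.6% were in GENCODE vM21, used for exon overlap. The 10 genes and the other lists were chosen with earlier results of these data known. Named were all 10 genes and, from each list, up to 4 called genes by smallest adjusted p, or the 2 with the highest FPKM where none passed, and the 5 genes most alike in pattern. Figures were drawn with matplotlib 3.10.9.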

Additional observations from a re-analysis of the deposited data

How the results depend on the processing

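Loxl1 kept a negative fold change in all 15 alternatives and passed in 8 of them; Col3a1 passed in 5 (adjusted p 0.021 to 0.228 over the alternatives). The count of lower genes among the 10 was 2 with DESeq2, 0 with scaling by library size, 2 with no low-count filter and 2 with a correction for GC content and length chosen after seeing the data, and 0 to 2 when 1 library was left out. All genes called were 2166 with DESeq2, 2134 with the GC and length correction and 444 to 2807 when 1 library was left out. In the 198 wider genes, 7 were higher with the GC and length correction, and leaving out 1 library gave 2 to 9 higher and 2 to 28 lower. Library size scaling moved the median of all genes to 0.21, against 0.10, and the calls to 831 higher and 786 lower, against 580 and 835. Deviations from the group mean were hardly correlated between BPA and untreated libraries of the same replicate number (-0.0205, 0.0612 and 0.0672 for replicates 1 to 3). For differing numbers the correlations were -0.0792 to 0.0280, so pairing was neither shown nor excluded. With a replicate block 2 of the 10 were lower (Col3a1 newly, edgeR adjusted p = 0.0366) and 1706 genes were called in all. The fold change of Pdgfra changed sign to -0.000466 with limma-voom and -0.283 with the GC and length correction, that of Thy1 to 0.123 with that correction. Leaving out 1 library gave -0.257 to 0.355 for Pdgfra, -0.592 to 0.0696 for Thy1 and -0.303 to 0.0593 for Timp2. Of 150 values of the 10 genes, 129 kept direction and side of the threshold, 6 newly passed, 7 lost it and 8 changed sign; the cause was not tested. The counts of Col3a1, 23 to 161 per library, limit its precision.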

Other observations

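Basement membrane genes, singled out after their values were seen, differed widely in level per length. Over the 6 libraries Nid2, which encodes the linker protein nidogen-2, averaged 45.5 FPKM and Col18a1, which encodes the collagen that yields endostatin, 15.9 FPKM, and neither passed the threshold (log2 fold change of BPA over untreated -0.06, edgeR adjusted p = 0.881, and -0.38, edgeR adjusted p = 0.258). The collagen IV genes Col4a1 and Col4a2 averaged 2.64 and 2.44 FPKM. Col4a1 was at 18.7 ± 2.46 CPM under BPA and 18.6 ± 2.64 CPM in untreated cultures (SD, n = 3 each). The laminin gene Lamc1 was at 45.2 ± 8.10 CPM under BPA and 30.9 ± 5.13 CPM in untreated cultures (log2 fold change 0.55, SE 0.25, edgeR adjusted p = 0.184).

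The genes whose log2 CPM over the 6 libraries was most like the mean standardised pattern of the 10 matrix and fibroblast genes, among 12531 compared, were Sod3 (Pearson r = 0.995), Pld3 (0.987), Slc16a13 (0.985), Gpr161 (0.984) and Fbl (0.983). These r are the 5 highest of the 12531 over 6 libraries, so high values follow from the selection. All genes compared also share the scaling of each library, and the r are a description. Sod3, which encodes the extracellular superoxide dismutase, had 18, 48 and 0 counts in BPA replicates 1 to 3, and 137, 60 and 19 counts in untreated replicates 1 to 3.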
